A study of Mus musculus with 6 samples.

Results

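The genes described here are the secreted Wnt ligands, the Frizzled receptors, the R-spondins, the R-spondin receptors Lgr4 to Lgr6 and the co-receptors Lrp5 and Lrp6. They were taken by symbol from a table of 49315 mouse genes and number 38, of which 19 are ligands, 10 Frizzled receptors, 4 R-spondins, 3 Lgr receptors and 2 Lrp co-receptors. RNA was sequenced from wild-type mouse tail-tip skin cells in 6 libraries, 2 for each of 3 groups. Fibroblasts (day 0) carried negative-control lentiviral vectors. Early cells (day 7) carried CRISPRa vectors, and late cells (day 22), called induced cardiac progenitors, carried CRISPRa vectors and came from isolated colonies. CRISPRa, here in its SAM version, uses a Cas9 that does not cut to recruit transcriptional activators to promoters. The labels name that vector system for all samples, and no source used here gives the targeted genes. Nothing in them says whether the 2 libraries of a group came from separate animals or cultures. The spread behind each p-value is that between such libraries, of unstated origin. Early replicate 1 is described as early reprogrammed and early replicate 2 as partially reprogrammed.

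Wnt proteins are lipid-modified signals that bind a Frizzled receptor together with Lrp5 or Lrp6 and stabilise beta-catenin, or act through Frizzled with Ror or Ryk receptors without beta-catenin. R-spondins bind Lgr4, Lgr5 or Lgr6 and keep Frizzled and Lrp proteins on the cell surface by blocking the ubiquitin ligases Rnf43 and Znrf3. In skin these signals govern hair follicle formation and dermal fibroblasts. In the embryo, beta-catenin signalling first promotes mesoderm and later has to be reduced for heart muscle to form, and Wnt5a and Wnt11 are known for their part in heart development without beta-catenin.

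Total counts ranged from 20172874 to 40122999 per library, so that 3 counts, used as the detection floor, stood for 0.0837 to 0.142 CPM (counts scaled to a common library size). Such floors, and the intervals given with ratios, cover counting error only. Of 10 fibroblast markers, 9 or 10 were at 1 CPM or more in every library, and their sums ranged from 7357 to 17419 CPM. Early replicate 1 was low in several of them, with Lum at 0, Dcn at 3.20 against 176 and 139 CPM in fibroblasts, and Col3a1 at 16.96 against 1077 and 1299 CPM. Of 10 keratinocyte markers, 3 to 6 reached 1 CPM, with Krt5 and Krt14 at or below 0.458 CPM in every library and Cdh1 at 20.1 and 6.56 CPM in late cells. Late replicate 2 stood apart. Its 12 cardiomyocyte markers summed to 53621 CPM against 84.1 in late replicate 1 and 19.5 to 141 in the other 4 libraries, 10 endothelial markers to 817 against 27.6 CPM, and 6 erythroid markers to 1036 against 1.46 CPM. Mitochondrially encoded transcripts took 10.3% of its counts, against 1.48% to 2.16% elsewhere. Xist, which coats the inactive X chromosome in female cells, had 1625 counts in fibroblast replicate 1 and 1468 in late replicate 1, but 3 to 12 in the other libraries. In fibroblasts and in late cells, the 2 libraries of the group thus differed in Xist and were not repeats of 1 RNA sample. Early replicates 1 and 2 had 4 and 3 Xist counts. They differed in Col3a1 (16.96 and 3884 CPM) and Lum (0 and 102 CPM), too far for repeats of 1 RNA sample. Whether they came from separate animals or cultures is not stated.

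Promoter sequences are shown for 4 members that the promoter table holds. These are Lgr4, called lower, Fzd4, the receptor closest to being called higher, and Wnt11 and Wnt5b, uncalled ligands higher in both late libraries. They were read from RefSeq (GRCm38.p6), run 5′ to 3′ on the gene's strand and end at the base before the start site or the first annotated exon. Capitals mark CTTTGAT or its reverse complement ATCAAAG, the core of the site bound by TCF/LEF factors, the DNA-binding partners of beta-catenin.

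Lgr4 (chr2:109917397-109917646, plus strand): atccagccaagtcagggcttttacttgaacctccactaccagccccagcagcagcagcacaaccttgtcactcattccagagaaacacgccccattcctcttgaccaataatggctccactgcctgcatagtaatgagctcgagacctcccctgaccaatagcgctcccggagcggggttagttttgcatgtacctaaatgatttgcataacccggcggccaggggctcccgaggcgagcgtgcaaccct
Fzd4 (chr7:89404116-89404354, plus strand): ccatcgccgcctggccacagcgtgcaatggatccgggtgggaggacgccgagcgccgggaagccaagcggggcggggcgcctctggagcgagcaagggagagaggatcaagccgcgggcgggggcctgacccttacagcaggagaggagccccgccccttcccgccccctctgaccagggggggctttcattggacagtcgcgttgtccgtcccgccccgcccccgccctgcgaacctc
Wnt11 (chr7:98834862-98835111, plus strand): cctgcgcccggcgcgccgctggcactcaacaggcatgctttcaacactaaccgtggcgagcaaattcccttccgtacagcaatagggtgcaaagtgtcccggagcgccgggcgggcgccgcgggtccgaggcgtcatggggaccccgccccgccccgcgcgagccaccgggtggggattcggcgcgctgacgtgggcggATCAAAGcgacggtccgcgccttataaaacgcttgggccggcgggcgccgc
Wnt5b (chr6:119449387-119449636, minus strand): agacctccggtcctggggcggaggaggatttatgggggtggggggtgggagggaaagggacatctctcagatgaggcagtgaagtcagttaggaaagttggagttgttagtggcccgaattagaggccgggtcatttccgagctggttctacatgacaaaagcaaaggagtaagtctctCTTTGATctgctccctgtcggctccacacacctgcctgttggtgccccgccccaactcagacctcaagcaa

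The Wnt11 match began 51 bases before the start site and the Wnt5b match 71 bases before it, at 1 of 2 listed Wnt11 starts and 1 of 3 listed Wnt5b starts. For both genes, only the start with the match is shown. Of 25 members with an entry in the promoter table, Wnt11 and Wnt5b were the 2 with such a match, at 2 of 28 start sites. Over all 32841 start sites in the table, 3.21% had a match in the same 250 bases. AGATAA or TTATCT, letters bound by GATA factors, occurred before a start of Fzd1 and Wnt8b and before 9.99% of all start sites. A match is a description of these letters and not of a bound factor.

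Wnt5a, the ligand best known for signalling without beta-catenin, dominated the ligands of fibroblasts and fell in both CRISPRa groups. It stood at 337 and 283 CPM in fibroblast libraries, 69.5 and 57.6 in early cells, and 62.9 and 46.0 in late cells. Every CRISPRa library lay below both fibroblast libraries. Its log2 fold change from fibroblasts was -2.28 ± 0.26 in early cells (SE, edgeR quasi-likelihood test, Benjamini-Hochberg adjusted p = 0.0368) and -2.50 ± 0.27 in late cells (adjusted p = 0.0364). Wnt5a (ENSMUSG00000021994) lies on chromosome 14 from 28504750 to 28527448 in GRCm38, and its exons overlap those of the antisense RNA Gm2670, from which reads cannot be told apart if strand was ignored in counting. The 10 macrophage and leukocyte markers were all at 1 CPM or more in fibroblasts, and their sum was lower in every CRISPRa library. They summed to 292 and 1213 CPM in fibroblast libraries, 115 and 51.1 in early cells and 71.2 and 227 in late cells. Cd14 went the other way. Early replicates held 110.6 and 40.2 CPM of Cd14 and late replicates 67.0 and 72.5, against fibroblast values of 20.2 and 35.4. It was most of the sum in both early libraries and in late replicate 1. Between the fibroblast libraries, the marker sum was higher in replicate 2, whereas Wnt5a was higher in replicate 1. The part of these markers in the results was not tested. In bulk RNA, fewer cells with a transcript and less of it per cell cannot be told apart, here or below.

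Per kilobase of exon, which allows genes to be compared, Wnt5a made up 80.8% and 71.1% of the summed ligand level of the fibroblast libraries. Its share was 42.7% and 44.4% in early libraries and 20.7% and 32.1% in late ones, with no overlap between groups. The summed ligand level was 53.3 and 50.8 CPM per kb in fibroblasts, 20.8 and 16.6 in early cells and 38.7 and 18.3 in late cells. Fibroblast libraries were thus the highest in sum as well.

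**Figure D1:**
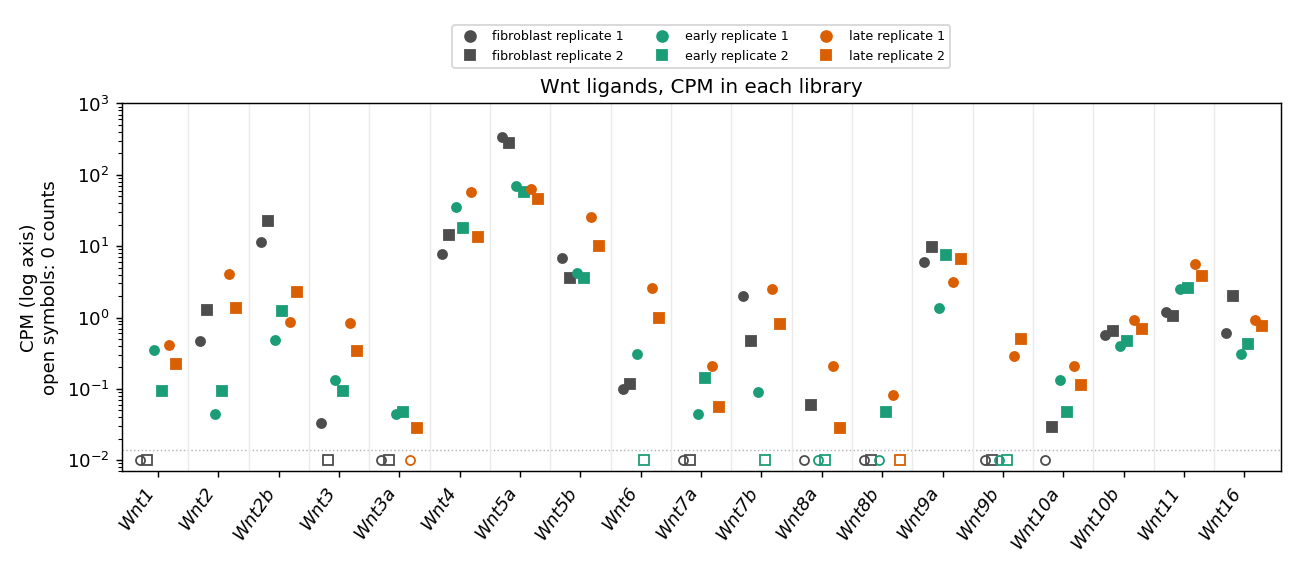
CPM of the 19 Wnt ligands on a log axis, by library; circles are replicate 1, squares replicate 2, and open symbols below the dotted line are libraries with 0 counts. Wnt5a is at 283 to 337 CPM in fibroblasts and at 46.0 to 69.5 CPM in the other 4 libraries, and Wnt9b has counts in the late libraries alone.

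Wnt4 and Wnt5b ranked next to Wnt5a in the late libraries. Wnt4, a ligand of kidney and gonad development, was at 7.85 and 14.3 CPM in fibroblast libraries, 35.7 and 18.0 in early cells, and 57.4 and 13.5 in late cells. Both early libraries lay above both fibroblast libraries, whereas late replicate 2 lay between the fibroblast libraries (edgeR adjusted p = 0.321 for early and 0.201 for late cells against fibroblasts). Per kilobase, Wnt4 held 40.9% and 25.8% of the ligand level in early libraries and 35.3% and 17.5% in late ones, against 3.51% and 6.69% in fibroblasts. In late replicate 1 it was the highest ligand (13.7 against 8.04 CPM per kb for Wnt5a), and in late replicate 2 Wnt5a was (5.89 against 3.21), so the order of these neighbours differed between the libraries.

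Wnt5b, the close relative of Wnt5a, did not follow it. It was at 6.78 and 3.56 CPM in fibroblast libraries, 4.27 and 3.55 in early cells, and 25.8 and 10.2 in late cells, so that late libraries were above all others. The late against early log2 fold change was 2.20 ± 0.62 (edgeR adjusted p = 0.399), and that against fibroblasts 1.80 ± 0.61 (adjusted p = 0.122). Wnt11, the other ligand tied to heart development, was also highest in late cells: 1.21 and 1.06 CPM in fibroblast libraries, 2.54 and 2.55 in early cells and 5.66 and 3.82 in late cells. No groups overlapped for Wnt11, although neither contrast with fibroblasts passed (log2 fold change 1.16 ± 0.50, edgeR adjusted p = 0.194, and 2.06 ± 0.51, adjusted p = 0.0786). Exons of Wnt11 overlap those of a pseudogene on the opposite strand, Gm8398.

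Some ligands were low in early cells and higher in late ones. Wnt2, known from lung and heart mesoderm, had 14 and 44 counts in fibroblasts, 1 and 2 in early cells and 98 and 48 in late cells. The ratio of late to early cells was 35.5, with an exact 95% interval for counting error of 11.9 to 174, and that of fibroblasts to early cells 13.2 (4.30 to 65.9). Wnt7b had 59 and 16 counts, then 2 and 0, then 61 and 29, with a ratio of late to early of 32.8 (8.82 to 275). Exons of Wnt7b overlap those of an antisense RNA, AU022754, with the limit given for Wnt5a. Wnt6 had 3 and 4 counts in fibroblasts, 7 and 0 in early cells and 62 and 35 in late cells. None of the contrasts of these 3 genes passed the edgeR test (adjusted p from 0.101 to 0.838).

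Wnt2b, a relative of Wnt2, was also low in early cells but stayed below fibroblasts in late cells. It was at 11.4 and 22.6 CPM in fibroblast libraries, 0.490 and 1.23 in early cells and 0.874 and 2.26 in late cells, below both fibroblast libraries throughout (edgeR adjusted p = 0.0655 for early and 0.0751 for late cells). Wnt16 had fibroblast levels of 0.604 and 2.0 CPM and early levels of 0.312 and 0.426, with late cells at 0.916 and 0.753. Wnt9a overlapped between groups, with 1.38 to 9.61 CPM, and Wnt10b stayed between 0.401 and 0.916 CPM.

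The other 8 ligands had too few counts for the expression filter and were not tested in the edgeR fit used here. Wnt9b had 0 counts in all 4 fibroblast and early libraries and 7 and 18 in late ones, at least 8.89-fold higher than in fibroblasts when 3 counts are set for that whole group. Wnt1, a classic beta-catenin ligand of the neural tube, had 0 counts in fibroblasts, 8 and 2 in early cells and 10 and 8 in late cells, at least 4.88-fold and 6.40-fold higher. Wnt3, which is needed for mesoderm formation, had 1 and 0 counts, 3 and 2, and 20 and 12, a ratio of late cells to fibroblasts of 34.1 (5.70 to 1390). Without the filter, edgeR called Wnt9b, Wnt1 and Wnt3 higher in late cells than in fibroblasts (adjusted p = 0.0357, 0.0415 and 0.0363), where it called 7.81% of all genes. DESeq2 called Wnt1 and Wnt3 (adjusted p = 0.0394 and 0.0311), where it called 26.0% of genes with an adjusted p. Wnt10a, Wnt7a, Wnt8a, Wnt8b and Wnt3a had at most 5 counts in any library.

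Some ligand genes lie side by side in pairs on chromosomes 1, 11 and 15. Wnt6 and Wnt10a are 6.2 kb apart on chromosome 1, with 62 and 35 counts for Wnt6 and 5 and 4 for Wnt10a in late libraries. Wnt9b and Wnt3 lie 24.3 kb apart on opposite strands of chromosome 11, and Wnt10b and Wnt1 lie 11.7 kb apart on chromosome 15, with 22 and 25 late counts for Wnt10b. On the same chromosome 11, Wnt3a and Wnt9a are 16.2 kb apart, and there Wnt9a had 76 and 234 late counts and Wnt3a 0 and 1. Both genes had counts in both late libraries in 3 of 4 pairs. However, 18 of all 19 ligands had a count in each late library, so nearly any pair would share this. It is no result about neighbouring genes. Wnt10b also had 17 and 22 counts in fibroblasts. Counts were too low for a test of most of these genes.

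The Frizzled receptors differed among themselves in opposite directions. Fzd1, Fzd2 and Fzd7, receptors of mesenchymal cells, had the highest levels in fibroblasts, and Fzd4 and Fzd6 were low there. Fzd4, the receptor of norrin in vessel development, was at 6.07 and 3.73 CPM in fibroblast libraries, 45.4 and 22.03 in early cells and 46.9 and 84.3 in late cells. All CRISPRa libraries lay above both fibroblast libraries, at a log2 fold change of 2.78 ± 0.53 for early (edgeR adjusted p = 0.0642) and 3.75 ± 0.56 for late cells (adjusted p = 0.0521), both short of the threshold of 0.05. Endothelial markers moved with it in late replicate 2, where they summed to 817 CPM. In early libraries they summed to 7.12 and 10.7 CPM against 11.6 and 15.8 in fibroblasts. Tek was at 0.0890 and 0.142 against 5.27 and 7.67 CPM, and Cdh5 at or below 0.0473 against 0.503 and 0.9995 CPM. Higher in early libraries were Pecam1, at 0.846 and 1.23 against 0.101 and 0.323 CPM, and Erg, at 0.490 and 5.53 against 0.0671 and 0.118 CPM. The part of endothelial markers in the Fzd4 values was not tested.

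Fzd6, a receptor of planar cell polarity in skin, was at 10.6 and 7.97 CPM in fibroblast libraries, 83.9 and 34.9 in early cells and 49.3 and 62.3 in late cells. Its log2 fold changes of 2.68 ± 0.48 and 2.59 ± 0.48 again missed the threshold (adjusted p = 0.0602 and 0.0608). Exons of Fzd6 overlap a divergent noncoding RNA, Gm26704. Fzd9 was near 1 CPM or below in most libraries, at 0.335 and 0.235 in fibroblasts, 0.846 and 1.42 in early cells and 0.708 and 1.12 in late cells.

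**Figure D2:**
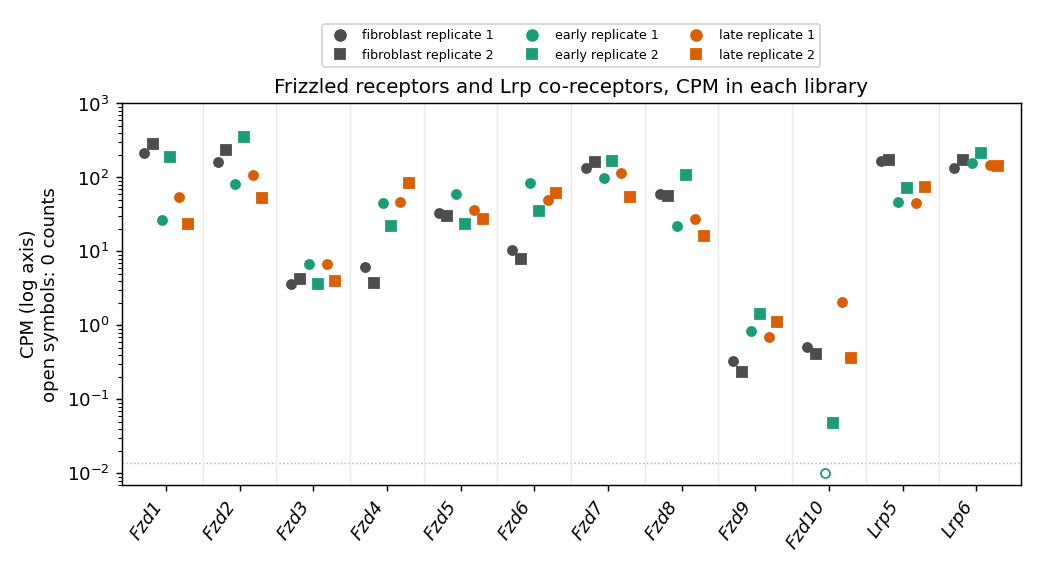
CPM of the 10 Frizzled receptors and of Lrp5 and Lrp6 on a log axis, by library; circles are replicate 1, squares replicate 2, and the open symbol is a library with 0 counts. Fzd4 and Fzd6 are higher in all 4 CRISPRa libraries than in fibroblasts, and Lrp5 is lower.

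Fzd1 was at 214 and 285 CPM in fibroblast libraries, 26.9 and 190 in early cells and 53.9 and 23.6 in late cells. Fibroblasts did not overlap with either other group, but the early libraries lay 7.06-fold apart, and neither contrast passed (edgeR adjusted p = 0.425 and 0.133). Fzd2 was at 162 and 234 CPM in fibroblast libraries, 81.3 and 349 in early cells and 108 and 53.4 in late cells, and Fzd8 at 59.99 and 56.6, 22.03 and 108, and 27.3 and 16.1. For Fzd1, Fzd2, Fzd7 and Fzd8 alike, early replicate 2 was above early replicate 1 and late replicate 1 above late replicate 2. Fzd7 was at 133 and 160 CPM in fibroblasts, with 96.9 and 165 in early and 114 and 53.9 in late cells. Fzd5 ranged from 23.3 to 59.3 CPM and Fzd3 from 3.59 to 6.83, and none of these 3 had a fold of 2 with groups apart. Fzd10 had 15 and 14 counts in fibroblasts, 0 and 1 in early cells and 50 and 13 in late cells.

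In composition, Fzd1 and Fzd2 made up 66.5% and 71.7% of the Frizzled level per kilobase in fibroblasts, 32.8% and 67.0% in early libraries and 44.0% and 31.0% in late ones. Fzd4 and Fzd6 together took 2.17% and 1.20% in fibroblasts, 27.7% and 5.02% in early cells and 17.9% and 39.1% in late cells. The early libraries differed 5.51-fold in that share.

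**Figure D3:**
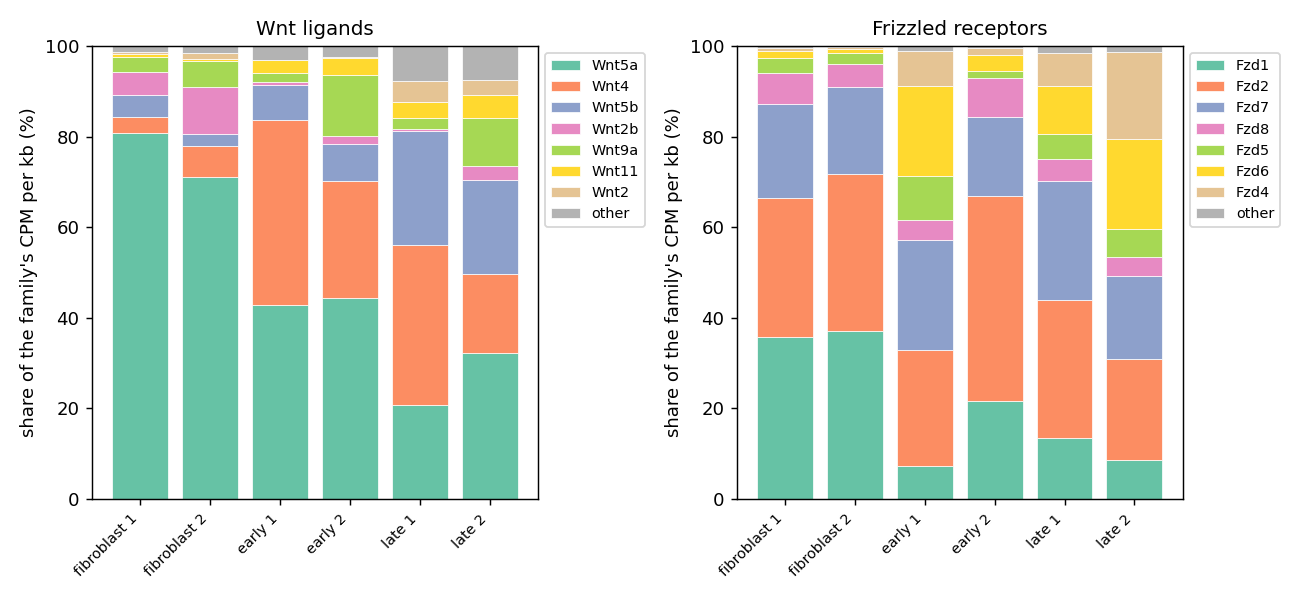
Share of each family's summed CPM per kilobase of exon that each member holds, by library, for the ligands (left) and the Frizzled receptors (right); each bar adds up to 100%. Wnt5a holds 80.8% and 71.1% of the fibroblast bars and 20.7% and 32.1% of the late bars, and Fzd4 with Fzd6 takes 17.9% and 39.1% there.

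Of the co-receptors, Lrp5 was lower in CRISPRa libraries and Lrp6 was not. Lrp5 stood at 168 and 175 CPM in fibroblast libraries, 47.2 and 71.3 in early cells and 45.1 and 73.7 in late cells. The log2 fold changes were -1.53 ± 0.34 and -1.52 ± 0.34 (edgeR adjusted p = 0.0733 and 0.0709). Lrp6 was at 135 and 175 CPM in fibroblasts, with 155 and 211 in early and 146 and 144 in late cells. Per kilobase, Lrp5 was above Lrp6 in both fibroblast libraries (17.3 and 17.9 against 9.89 and 12.8) and below it in all 4 others. The difference between the fold changes of these genes was not tested.

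R-spondins and their receptors held 2 of the 3 members called in early cells, Rspo2 and Lgr4. Rspo2, which amplifies Wnt signals in hair follicles and limbs (ENSMUSG00000051920, chromosome 15, 43020794 to 43170826), had fibroblast levels of 39.2 and 94.5 CPM, followed by 0.401 and 0.473 in early cells and 0.416 and 0.195 in late cells. It fell by 7.24 on the log2 scale in early cells (SE 0.70, edgeR adjusted p = 0.0289) and fell by 7.79 in late cells (SE 0.71, adjusted p = 0.0325). The early libraries held 9 and 10 counts and the late ones 10 and 7, against 1169 and 3213 in fibroblasts. Rspo3, a factor of vessel and placenta development, was at 23.0 and 34.0 CPM, then 3.07 and 2.98, then 3.46 and 0.949. All other libraries lay below both fibroblast libraries, as for Rspo2, but Rspo3 missed the threshold (log2 fold change -3.23 ± 0.70, adjusted p = 0.0712, and -3.70 ± 0.71, adjusted p = 0.0631). Rspo3 shares exon sequence with an antisense RNA, Gm48159.

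Rspo4, the R-spondin of nail development, had 80 and 21 counts in fibroblasts and 0 in both early libraries, at least 23.0-fold lower there with 3 counts set for the group. In late cells it had 2 and 0 counts, a ratio of fibroblasts to late cells of 47.4 (12.8 to 396). Rspo1 was the exception. It had 8 and 14 counts in fibroblasts, 0 and 19 in early cells and 16 and 31 in late cells. In sum, R-spondins stood at 16.4 and 30.0 CPM per kb in fibroblasts and at 0.792 to 1.58 in the other libraries.

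Lgr4, the most widely expressed R-spondin receptor (ENSMUSG00000050199, chromosome 2, 109917647 to 110014257), had fibroblast levels of 108 and 163 CPM, followed by 33.3 and 35.1 in early cells and 45.9 and 46.0 in late cells. It fell in early cells, with a log2 fold change of -1.99 ± 0.26 (edgeR adjusted p = 0.0438). In late cells it was lower by a log2 fold change of -1.56 ± 0.26 and missed the threshold (adjusted p = 0.0559). Lgr5, a marker of hair follicle and gut stem cells that is itself a beta-catenin target, was at 57.2 and 46.0 CPM in fibroblast libraries, 2.27 and 1.23 in early cells and 2.46 and 0.726 in late cells. These differences lay at the border of the threshold (adjusted p = 0.0504 and 0.0508).

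Lgr6, a marker of other skin stem cells, was high in a single late library. It was at 45.2 and 8.08 CPM in fibroblast libraries, 3.16 and 0.993 in early cells, and 4.16 in late replicate 1 against 83.7 in late replicate 2. That library also held the high sums of cardiomyocyte, endothelial and erythroid markers given above. The 8 skeletal muscle markers summed to 2464 against 35.2 CPM, mostly from Ckm (1406 CPM) and Des (973 CPM). Myod1, Myog and Myf5 were at or below 0.0279 CPM there. Pax7 (0.279 against 1.79 CPM) and Myh3 (0.112 against 0.416 CPM) were lower than in late replicate 1. Sums were also higher for 10 keratinocyte markers (967 against 186 CPM, of which Dsp 790 CPM) and 6 adipocyte markers (285 against 9.49 CPM). The 9 melanocyte and neural crest markers summed to 53.7 against 10.3 CPM, with 44.5 and 50.5 in fibroblasts. Their part in the Lgr6 value was not tested. In late replicate 2 Lgr6 made up 60.7% of the Lgr level per kilobase, while Lgr4 made up 90.2% in late replicate 1.

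**Figure D4:**
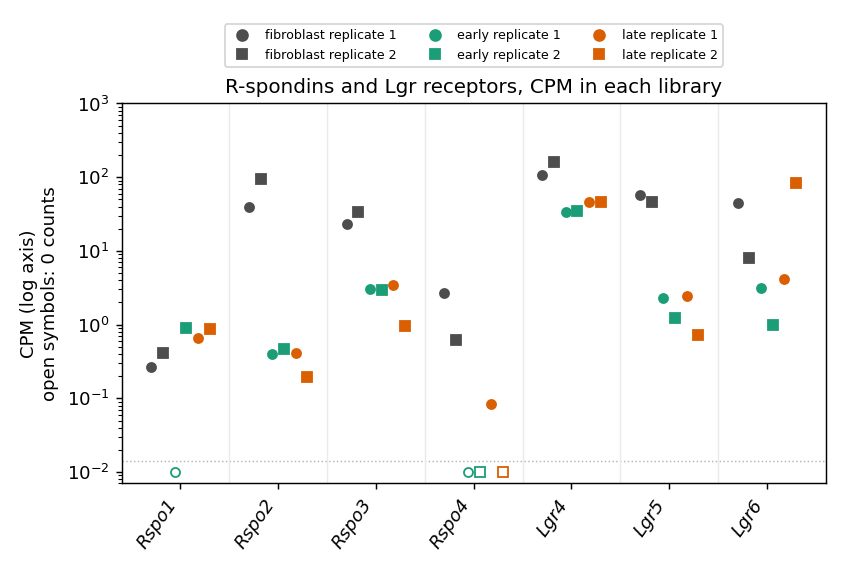
CPM of the 4 R-spondins and the 3 Lgr receptors on a log axis, by library; circles are replicate 1, squares replicate 2, and open symbols are libraries with 0 counts. Rspo2, Rspo3, Lgr4 and Lgr5 are lower in all 4 CRISPRa libraries than in fibroblasts, and Lgr6 is highest in late replicate 2.

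Of the 38 members, 30 passed the expression filter and were tested. Some of these, such as Rspo4 and Wnt6, had more than a few counts in a single group and passed through it, so counts over the tested members describe them and support nothing further. Early cells against fibroblasts gave 3 called members, Wnt5a, Rspo2 and Lgr4, all lower, where 1.53% of the 16688 genes tested were called, 0.695% higher and 0.833% lower. A fold of at least 2 with no overlap between groups was found downward in 14 of 30 members against 17.1% of all genes, and upward in 5 against 17.6%. The members' median log2 fold change was -0.65, beside 0.00 over all genes tested. With 1 fibroblast or early library left out, the log2 fold change ranged from -2.42 to -2.12 for Wnt5a, from -7.75 to -6.48 for Rspo2 and from -2.26 to -1.66 for Lgr4. None of these calls held in such fits, which keep 1 library of a group. Calls over all genes changed in such fits as well, as given below with the processing.

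Late cells against fibroblasts gave 2 called members, Wnt5a and Rspo2, where 1.42% of genes were called, 0.641% higher and 0.779% lower. Over all genes the calls split into 107 higher and 130 lower, and into 180 higher and 120 lower when libraries were scaled by total counts alone. A fold of at least 2 without overlap was found downward in 11 of 30 members against 14.7% of all genes, and upward in 8 against 20.7%. The median of the members was -0.03, beside 0.11 for all genes tested. Early and late cells were compared with the same fibroblast libraries, so their values are not independent. With 1 fibroblast or late library left out, the log2 fold change ranged from -2.83 to -2.31 for Wnt5a and from -8.46 to -7.01 for Rspo2. Neither call held without fibroblast replicate 1, fibroblast replicate 2 or late replicate 2, fits in which calls over all genes changed as well.

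Late cells against early cells gave 0 called members and 0.0% of genes called by edgeR, with 6 members and 10.2% of genes at an unadjusted p under 0.05. DESeq2 called 5 members in this contrast, Fzd10, Lgr6, Wnt2, Wnt5b and Wnt7b, all higher in late cells, and 6.55% of all genes with an adjusted p. A fold of at least 2 without overlap was found upward in 7 of 30 members against 10.5% of genes, and downward in 0 against 3.81%. Of the 11 tested ligands, 10 had a positive log2 fold change, where 7857 of all 16688 genes did. Their median was 0.90 beside -0.03 over all genes. None of them was called by edgeR, and Wnt6 passed the filter through the late group, so this count supports nothing further.

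**Figure D5:**
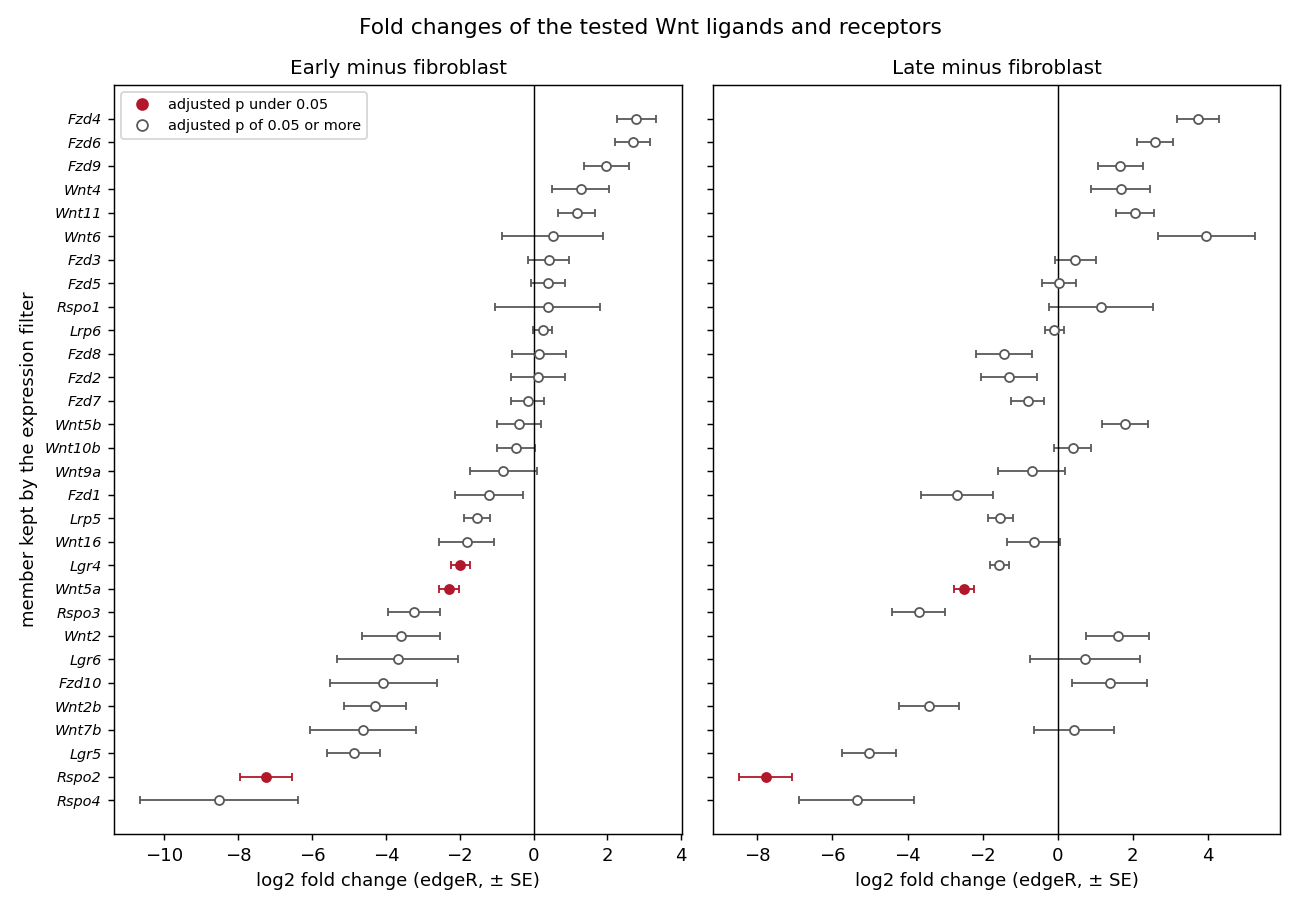
Log2 fold changes (points) with standard errors (bars) of the 30 tested members for early (left) and late (right) cells against the same fibroblasts; filled red points passed an adjusted p of 0.05. The 3 called members on the left and the 2 on the right are all negative, and the fitted value of Rspo4, which had 0 counts in early cells, depends on the model and is no bound.

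Genes that act before and after these proteins were taken from lists of the pathway. Of 9 matched genes for Wnt secretion and modification, 0 passed edgeR in any contrast. Over all genes, 1.53% passed in early and 1.42% in late cells against fibroblasts, and 0.0% in late against early cells. A count of 0 in lists this small is near those shares. Porcn, which attaches the lipid to Wnt proteins, stayed between 3.78 and 13.0 CPM, and Wls, which carries them to the surface, between 162 and 439 CPM. Of 15 tested other co-receptors and turnover genes, 0 passed. Ror2, a receptor of Wnt5a, ranged from 11.6 to 24.6 CPM, whereas Ror1 was at 1.64 and 2.91 CPM in fibroblast libraries, 1.96 and 34.6 in early cells and 13.2 and 8.99 in late cells. Znrf3 ranged from 11.9 to 19.7 CPM, and Rnf43 stayed below 1 CPM. Of 20 intracellular signalling genes, 0 passed. Their median log2 fold changes against fibroblasts were -0.23 for early and -0.17 for late cells, beside 0.004 and 0.111 over all genes tested.

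Among 20 listed beta-catenin target genes, which share Lef1, Tcf7, Rnf43, Znrf3, Notum and Prickle1 with the lists above and Lgr5 with the members, 18 were tested. In early cells 1 rose and 0 fell, where 0.695% of all genes rose and 0.833% fell. Of the tested targets, 9 were higher and 8 lower than in fibroblasts, with T at 0 counts in both groups. Over all 16688 genes, 8375 were higher and 8293 lower. In late cells 0 were called, where 1.42% of all genes were. There 12 were higher and 6 lower, where 9026 of all genes were higher and 7661 lower. Sp5, a transcription factor directly induced by Wnt signals, was the called gene. It had 0 counts in fibroblasts, 6.32 and 4.78 CPM in early cells and 2.21 and 1.09 in late cells, at least 119-fold higher in early cells with 3 counts set for the fibroblast group (edgeR adjusted p = 0.0456) and at least 32.7-fold higher in late cells (adjusted p = 0.0556). Axin2, a negative feedback gene of the pathway, was at 1.24 and 1.12 CPM in fibroblast libraries, 4.41 and 6.24 in early cells and 5.12 and 4.58 in late cells, above both fibroblast libraries throughout (adjusted p = 0.0746 and 0.0765).

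Notum and Tcf7 were likewise above both fibroblast libraries, and Lef1 was below them. Notum, which removes the lipid from Wnt proteins, had 2.45 and 0.882 CPM in fibroblasts against 3.45 to 5.92 in the other libraries. Tcf7 had 2.65 and 3.26 against 3.29 to 8.37, and its late replicate 2 (3.29) was only just above fibroblast replicate 2. Lef1 had 3.76 and 10.5 CPM in fibroblasts against 0.363 to 1.96 in the others. None of these 3 passed edgeR in early or late cells (adjusted p = 0.214 and 0.207 for Notum, 0.185 and 0.311 for Tcf7, 0.118 and 0.147 for Lef1). Nkd1 ranged from 0.0890 to 9.41 CPM within the early group alone. The call of Sp5 in early cells was lost without fibroblast replicate 1 (edgeR adjusted p = 0.231), fibroblast replicate 2 (0.243), early replicate 1 (0.131) or early replicate 2 (0.0676).

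Secreted antagonists, which bind Wnt proteins or Lrp co-receptors, differed from fibroblasts in both directions. In early cells 9 of 13 tested genes were lower and 2 fell, where 8293 of all 16688 genes were lower and 0.833% fell. In late cells 7 of 13 were lower and 1 fell, where 7661 of all genes were lower and 0.779% fell. Both early libraries lay above both fibroblast libraries for 3 of the 13 and below them for 8. Both late libraries lay above them for 6 and below them for 6. The share of all genes separated in this way, at any fold, was not computed, so these counts describe the listed genes alone. Dkk2, which binds Lrp5 and Lrp6, was at 2244 and 1918 CPM in fibroblast libraries, 38.6 and 55.2 in early cells and 30.8 and 22.8 in late cells (edgeR adjusted p = 0.0198 and 0.0240), and Sfrp2 fell in early cells (adjusted p = 0.0368).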

How the data were processed

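The authors deposited a table of unnormalized read counts for each Ensembl gene. The submitters' processing notes list STAR 2.5.2b, Subread 1.5.2, featureCounts, Trimmomatic 0.36 and the build GRCm38, and RNA was poly(A)-selected per the labels' protocols. The sources used here do not give the annotation release, the strand setting or the rule for multi-mapping reads. Columns of early and late cells were assigned by name, since their names are not exact sample titles; were that reading wrong, early and late values would change places. Symbols, positions and exon lengths came from GENCODE M21. Of 49315 identifiers, 49056 had a symbol.

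The test was the quasi-likelihood F test of edgeR 4.0.16 (R 4.3.3): default expression filter (16688 genes), TMM scaling, and a robust fit to the 3 group means over all 6 libraries, with 3 residual degrees of freedom. Calls are Benjamini-Hochberg adjusted p under 0.05 over all genes tested. Standard errors were computed as the absolute log2 fold change over the root of F. The fit was tested on simulated data. CPM uses TMM-scaled totals, and levels between genes are CPM per kilobase of the union of exons. Alternatives were DESeq2 1.42.0, other scalings, filters and samples.

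Values in all libraries are given for members called, for tested members apart between groups by a fold of at least 2, and for the 3 highest per kilobase of each family in a group. The members and the pathway and marker lists were chosen with earlier results of these data known. Of the listed pathway symbols, Tiki1 and Gpr124 were not matched.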

Additional observations from a re-analysis of the deposited data

How the results depend on the processing

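The direction of every called member was the same under all 14 alternatives run for it. Total counts alone raised the median log2 fold change of all genes by 0.17 in early and 0.16 in late cells against fibroblasts and turned the sign of Fzd7, Lrp6 and Lrp5 in 1 uncalled contrast each. For early against fibroblast, late against fibroblast and late against early, the counts of genes called (255, 237 and 0) became 2337, 2495 and 276 without an expression filter, 4067, 4710 and 1108 with the DESeq2 Wald test, and 0 to 823, 0 to 1058 and 0 to 602 with 1 library left out. The first became 514 with total counts alone and 466 with a minimum of 1 CPM in 2 libraries, and the first 2 became 1469 and 1016 with only the groups compared. The members called (3, 2 and 0) became 12, 14 and 1 without a filter, 13, 16 and 5 with DESeq2, 6 and 4 with total counts alone, 8 and 5 with only the groups compared, and 0 to 5 for both fibroblast contrasts with 1 library left out. Late against fibroblast also gave 4 members with the CPM minimum and 4 with non-robust estimation. The cause of these changes was not tested, except that a fit without a library keeps 1 library of its group, which is assumed to vary like the others. With the replicate number as a block, genes called became 26 and 9 and members called 0 and 0 for the fibroblast contrasts. Same-numbered libraries deviated together at correlations of 0.121, 0.238 and 0.086, and the labels do not say that a number marks a shared source, so the block is not read as a pairing. Under it Sp5 in early cells also missed the threshold (adjusted p = 0.074). The mean share of Wnt5a in the early ligand level was 45.3% with the longest transcript as length, against 43.6%. For Wnt10a, Wnt3a, Wnt7a, Wnt8a and Wnt8b, with at most 5 counts in a library, no difference was detectable at this depth.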
